A study of Mus musculus with 4 samples.

Results

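The response of 4T1-LM cells to the iron chelator deferasirox (DFX) was measured in 1 pair of RNA-seq libraries. The cells of LM_DFX had been exposed to DFX at 50 μmol/L during 48 h, and those of LM_Ctrl to DMSO, the solvent, alone. 4T1 is a murine mammary carcinoma line used as a model of triple-negative breast cancer (TNBC), and 4T1-LM is a clone of it, grown from a single cell, that was chosen for its low metastatic capacity. The series holds 4 libraries, the others being HM_Ctrl and HM_DFX, the same treatments at the same dose and time in 4T1-HM, a single-cell clone of high metastatic capacity. All 4 cultures were grown in RPMI medium with fetal bovine serum, and each library describes 1 culture of 1 clone.

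Values are FPKM, fragments scaled to gene length and to the library's total, so that levels of different genes are compared per length. Genes were kept when FPKM reached 1 in LM_DFX or in LM_Ctrl, which held for 11963 of the 49585 genes listed, and 37622 lay below this in both. Of the 11963 genes, 10659 reached 1 in both libraries, 499 only in LM_DFX and 805 only in LM_Ctrl. The change of a gene is given as log2((LM_DFX + 1)/(LM_Ctrl + 1)), and "higher" or "lower" is written of genes that differed at least 2-fold on this scale. At the edge of the rule, Gm28941 was kept with FPKM of 1.00 in LM_Ctrl and 0.180 in LM_DFX (log2 fold change -0.76), and Gm10516, with 0.319 and just under 1 (log2 fold change 0.60), was not.

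With 1 library per condition there is no replicate spread and no test, and a difference between LM_DFX and LM_Ctrl is one between these libraries. LM_Ctrl held 15731519 fragments and LM_DFX 21883855, as recovered from the FPKM values, and the HM libraries held 14363064 to 16745609. The median gene had 547 fragments in LM_Ctrl and 770 in LM_DFX, so that counting error was small beside most differences given here. Where a ratio has a 95% interval, it covers this counting error only. In bulk RNA, fewer cells of a kind and less RNA per cell cannot be told apart.

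The labelled cell type was checked against its markers. Epithelial transcripts were abundant in both libraries, with Cdh1 (E-cadherin) at 96.9 FPKM in LM_Ctrl and 59.9 in LM_DFX, Epcam at 29.3 and 22.6, and Krt18 at 933 and 499. The mesenchymal filament gene Vim was abundant as well, at 1251 and 702, whereas Cdh2 was at 0. Of the receptors whose absence defines TNBC, Pgr was at 0, Esr1 at 0.465 and 0.264, and Erbb2 at 11.8 and 4.71. The tight junction gene Cldn7 was close to 0 (0.620 and 0.258). Of the leukocyte markers, Ptprc stayed at 0.0139 and 0.0025, and their summed level rested on Cd68, a lysosomal glycoprotein, at 12.3 and 83.1.

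DFX is an oral drug that binds ferric iron. Iron is the cofactor of the prolyl hydroxylases that mark hypoxia-inducible factor (HIF) for destruction, of other 2-oxoglutarate dioxygenases, and of ribonucleotide reductase, which makes deoxynucleotides. Cells also sense iron through the iron regulatory proteins, which when iron is low bind hairpins called iron-responsive elements, holding back translation of ferritin mRNA and protecting transferrin receptor mRNA from decay. Stalled protein folding and shortage of amino acids or heme act through the factor ATF4, and foreign or misplaced nucleic acid acts through the interferon genes.

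The sequences below are shown because they hold the letters that the main groups of genes are known to carry. Each promoter window is the 250 bases before the gene's start in RefSeq annotation of GRCm38.p6, written 5′ to 3′ on the gene's strand, with the matched letters in capitals. In Ankrd37 and Hilpda, genes of the low-oxygen response, the capitals mark ACGTG, a form of the core bound by HIF, read on either strand. In Ifit3 and Cxcl10 they mark GAAANNGAA, the core of the interferon-stimulated response element. In Aars they mark TTGCATCA, the joint C/EBP and ATF site bound by ATF4, and in Cdc20, a gene of mitosis, TTTGAA, the letters of the cell cycle homology region.
Ankrd37, chr8:45999851-46000100, minus strand: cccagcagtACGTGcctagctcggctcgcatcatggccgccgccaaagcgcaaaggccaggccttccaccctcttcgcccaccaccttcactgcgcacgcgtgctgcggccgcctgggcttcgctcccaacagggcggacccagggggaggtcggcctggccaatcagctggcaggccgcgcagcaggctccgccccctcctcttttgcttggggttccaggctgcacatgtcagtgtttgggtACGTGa
Hilpda, chr6:29272376-29272625, plus strand: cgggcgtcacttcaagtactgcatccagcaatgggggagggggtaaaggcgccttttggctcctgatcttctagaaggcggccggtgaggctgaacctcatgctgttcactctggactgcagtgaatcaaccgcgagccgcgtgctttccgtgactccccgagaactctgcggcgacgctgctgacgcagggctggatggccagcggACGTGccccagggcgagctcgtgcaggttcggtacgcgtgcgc
Ifit3, chr19:34583279-34583528, plus strand: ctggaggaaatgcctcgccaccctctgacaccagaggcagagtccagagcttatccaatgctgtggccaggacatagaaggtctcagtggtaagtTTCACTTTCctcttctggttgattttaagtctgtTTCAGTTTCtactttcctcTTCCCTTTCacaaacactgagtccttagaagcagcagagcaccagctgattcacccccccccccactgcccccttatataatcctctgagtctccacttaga
Cxcl10, chr5:92348890-92349139, minus strand: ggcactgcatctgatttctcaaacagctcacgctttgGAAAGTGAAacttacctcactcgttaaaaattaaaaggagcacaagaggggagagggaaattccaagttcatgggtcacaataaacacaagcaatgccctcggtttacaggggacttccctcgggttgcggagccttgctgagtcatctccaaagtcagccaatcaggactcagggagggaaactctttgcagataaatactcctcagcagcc
Aars, chr8:111033592-111033841, plus strand: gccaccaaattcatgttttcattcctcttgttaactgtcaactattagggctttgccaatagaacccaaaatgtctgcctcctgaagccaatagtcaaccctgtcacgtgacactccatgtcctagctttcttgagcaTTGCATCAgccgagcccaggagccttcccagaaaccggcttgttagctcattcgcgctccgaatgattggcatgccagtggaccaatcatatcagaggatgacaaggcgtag
Cdc20, chr4:118437344-118437593, minus strand: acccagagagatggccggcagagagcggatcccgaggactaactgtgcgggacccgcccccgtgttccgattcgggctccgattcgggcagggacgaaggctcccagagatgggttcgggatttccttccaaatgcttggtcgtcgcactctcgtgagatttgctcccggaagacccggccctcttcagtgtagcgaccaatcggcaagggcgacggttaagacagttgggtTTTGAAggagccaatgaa

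Iron-responsive elements were searched in the untranslated regions of the GENCODE M21 transcripts as a hairpin whose loop reads CAGTGN, shown in capitals. They are given for ferritin heavy chain (Fth1), ferritin light chain (Ftl1) and the iron exporter ferroportin (Slc40a1), in the 5′ region, and for the transferrin receptor (Tfrc), which held 4 in its 3′ region, of which 1 is shown.
Fth1, chr19:9982732-9982761, plus strand: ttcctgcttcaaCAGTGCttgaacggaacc
Ftl1, chr7:45459778-45459807, minus strand: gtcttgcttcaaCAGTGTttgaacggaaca
Slc40a1, chr1:45925464-45925493, minus strand: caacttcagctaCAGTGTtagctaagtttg
Tfrc, chr16:32631598-32631627, plus strand: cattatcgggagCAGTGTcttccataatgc

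Over the 11963 genes, 898 (7.51%) were higher in LM_DFX and 1105 (9.24%) were lower, and 9960 lay within 2-fold. The shares of 7.51% and 9.24% are the background of the list counts given below. The median log2 fold change was -0.05, with quartiles at -0.49 and 0.38. At 4-fold the balance was the other way, with 180 genes higher (1.5%) and 134 lower (1.12%). At 8-fold, 58 were higher and 14 lower. Among the 10659 genes that reached FPKM of 1 in both libraries, 700 were higher and 806 lower. The largest changes were thus mostly gains.

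**Figure D1:**
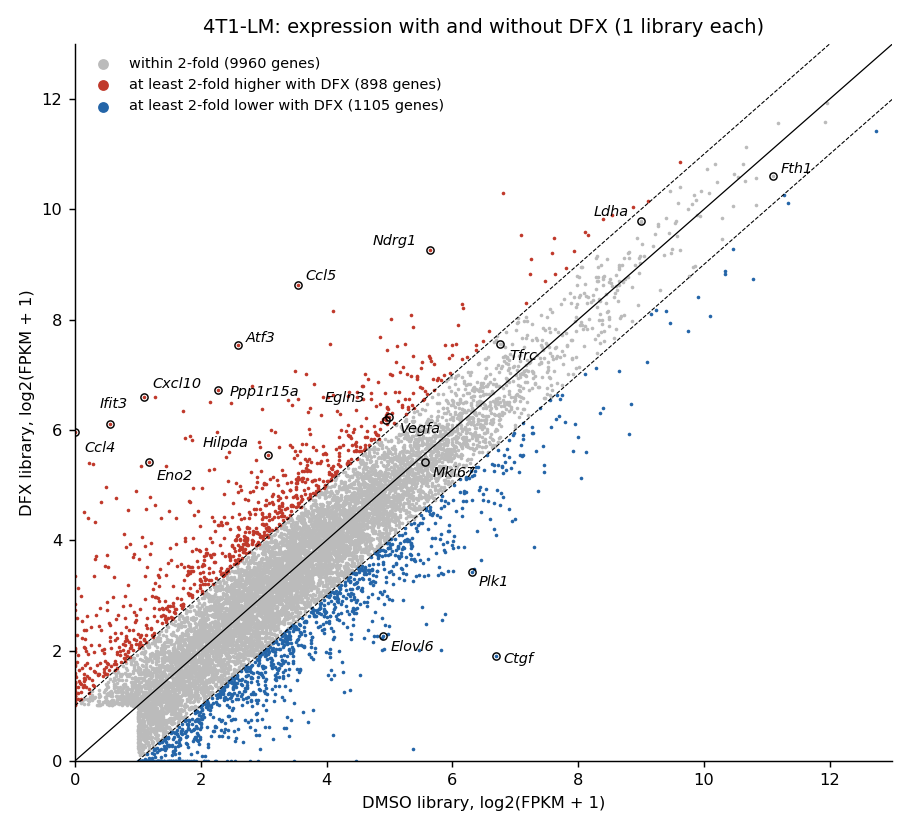
Level of each of the 11963 genes in LM_Ctrl (horizontal axis) against LM_DFX (vertical axis), both as log2(FPKM + 1), 1 point per gene, with the diagonal solid and the 2-fold limits broken. Red marks the 898 genes that were higher and blue the 1105 that were lower, and of the genes named in it Ccl4, Ifit3 and Cxcl10 lie farthest above the diagonal and Ctgf farthest below.

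The 15 protein-coding genes with the largest gain among those at FPKM of 10 or more in either library were led by chemokines and antiviral genes. Ccl4, a chemokine that draws lymphocytes and macrophages (chromosome 11, 83662584 to 83664683 in mm10), had no fragment in LM_Ctrl and 884 in LM_DFX, 61.2 FPKM, at least 212-fold higher against a floor of 3 fragments. Cxcl10, a chemokine that draws activated T cells (chromosome 5, 92346638 to 92348889), stood at 1.13 and 95.3 FPKM, a ratio of 84.4 (95% counting interval 61.9 to 118). Ccl5 stood at 10.7 and 394. The others among the 15 were Ifit3, Ifit3b, Ifit1, Usp18, Oasl1, Irf7 and Rsad2 of the interferon response, the stress genes Atf3 and Ppp1r15a, the neuronal enolase Eno2, the keratin Krt16 and Angptl6.

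Among protein-coding genes the largest loss was that of Ctgf, a matricellular growth factor and a classic target of TGF-beta and YAP, at 103 FPKM in LM_Ctrl and 2.75 in LM_DFX (log2 fold change -4.79, ratio 0.0267). The histone variant H2afx stood at 156 and 13.7 (-3.42). Mat2a, which makes the methyl donor S-adenosylmethionine, stood at 46.7 and 4.57 (-3.10), and Nrarp, a feedback inhibitor of Notch, at 19.8 and 1.43 (-3.10). Tubb4b, Plk1, H1f0, Tigit, Epha1, Idi1, Hoxa6 and Elovl6 were also among the 15 largest losses. Ifit3, Ifit3b, Krt16, Tubb4b, Nrarp and Idi1 share over 20% of their 31-base words with another gene, so their values are uncertain. The same holds for Ankrd37, Bnip3l, Ccnd1, Ctsd, Ddb2, Dnase2a, Gstm1, Mt2 and S100a4, named further on, which share 20.6% to 58.1%. The exons of Nrarp and Ctgf also lie over those of a gene on the other strand for 79% and 23% of their length, and whether strand was used in counting is not given in the sources used here.

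**Figure D2:**
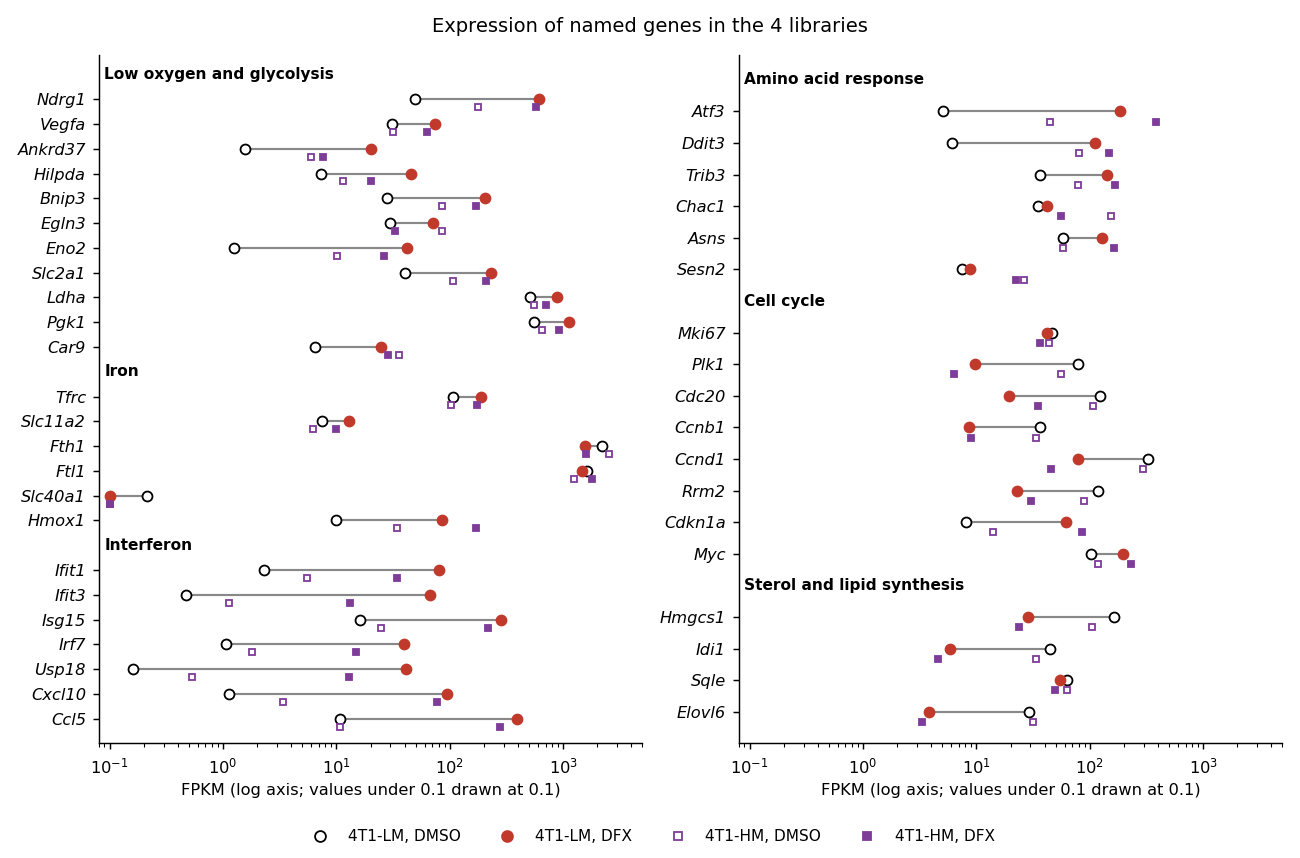
FPKM (horizontal axis, log scale, values under 0.1 drawn at 0.1) of named genes grouped by role, with open circles for LM_Ctrl, filled circles for LM_DFX, a line joining the pair, and squares for HM_Ctrl (open) and HM_DFX (filled). Ndrg1, at 49.1 and 613, and the interferon genes lie to the right with DFX, and Plk1, at 78.1 and 9.75, and Hmgcs1, at 163 and 28.8, lie to the left.

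Genes of the low-oxygen response, which HIF switches on, were higher as a group. Of 45 listed HIF targets, 38 passed the filter, and 27 were higher and 3 lower, with a median log2 fold change of 1.67 where all genes had -0.05. Over the 35 members at FPKM of 1 or more in both libraries, 25 were higher and 2 lower. Ndrg1, a stress gene known to respond both to low oxygen and to iron chelators (chromosome 15, 66929321 to 66969640), stood at 49.1 FPKM in LM_Ctrl and 613 in LM_DFX, a ratio of 12.5 (12.1 to 12.9) from 5089 and 88467 fragments. It had the highest level in LM_DFX among the HIF targets.

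The members that were higher cover the known arms of this response. Ankrd37, a small ankyrin protein and sensitive HIF reporter, stood at 1.57 and 20.1 FPKM (3.04), and Hilpda, which blocks lipid droplet breakdown, at 7.38 and 45.9 (2.49). Bnip3, a receptor for the removal of mitochondria, stood at 27.98 and 205 (2.83), although 57% of its words occur in other genes. The capitals in the sequences of Ankrd37 and Hilpda mark the ACGTG form of the HIF core in these promoters. Ero1l, an oxidase of protein folding, stood at 31.4 and 258 (3.00), and Hmox1, which breaks down heme and frees its iron, at 9.91 and 86.1 (3.00). The collagen prolyl hydroxylases P4ha1, at 24.3 and 121 (2.27), and P4ha2, at 3.53 and 20.4 (2.24), are themselves iron enzymes. Car9, a carbonic anhydrase that exports acid, stood at 6.51 and 24.8 (1.78), and the vessel growth factor Vegfa at 30.9 and 74.5 (1.24). The peptide hormone Adm, at 0.236 and 9.26, had only 6 fragments in LM_Ctrl. Errfi1 and the receptor ligands Pdgfb and Edn1 were lower, at -2.09, -1.95 and -1.48.

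The oxygen sensors themselves were in part among the genes that were higher. Egln3 and Egln1, prolyl hydroxylases that are also HIF targets, stood at 29.8 and 71.7 FPKM and at 37.3 and 77.1, log2 fold changes of 1.24 and 1.028. Vhl, the ubiquitin ligase subunit that takes hydroxylated HIF away, was higher as well (1.22). Hif1a mRNA stood at 51.9 and 29.1 (-0.81) and Egln2 at -0.72, both within 2-fold.

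Part of the genes of glucose use were higher. Of 33 listed genes of glycolysis and lactate, 29 passed, and 13 were higher and none lower, with a median of 0.90. Slc2a1, the basal glucose transporter, stood at 40.3 FPKM in LM_Ctrl and 231 in LM_DFX (2.49), and Eno2 at 1.26 and 41.8 (4.25). Hk2, the first enzyme of the path, stood at 17.5 and 51.0 (1.49), and Aldoa at 336 and 910 (1.44). Pdk1, which keeps pyruvate out of mitochondria, stood at 10.7 and 36.5 (1.68). Storage of glucose was represented by Pgm2 (2.12), Gys1 (1.77) and Gbe1 (1.28), which lead to glycogen. Ldha, lactate dehydrogenase, stood at 510 and 884 (0.79), under 2-fold though its fragments numbered 26555 and 64016. Gapdh (1.15) and Pgk1, at 555 and 1135 FPKM, share 28.1% and 54.7% of their words with other genes and are uncertain.

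**Figure D3:**
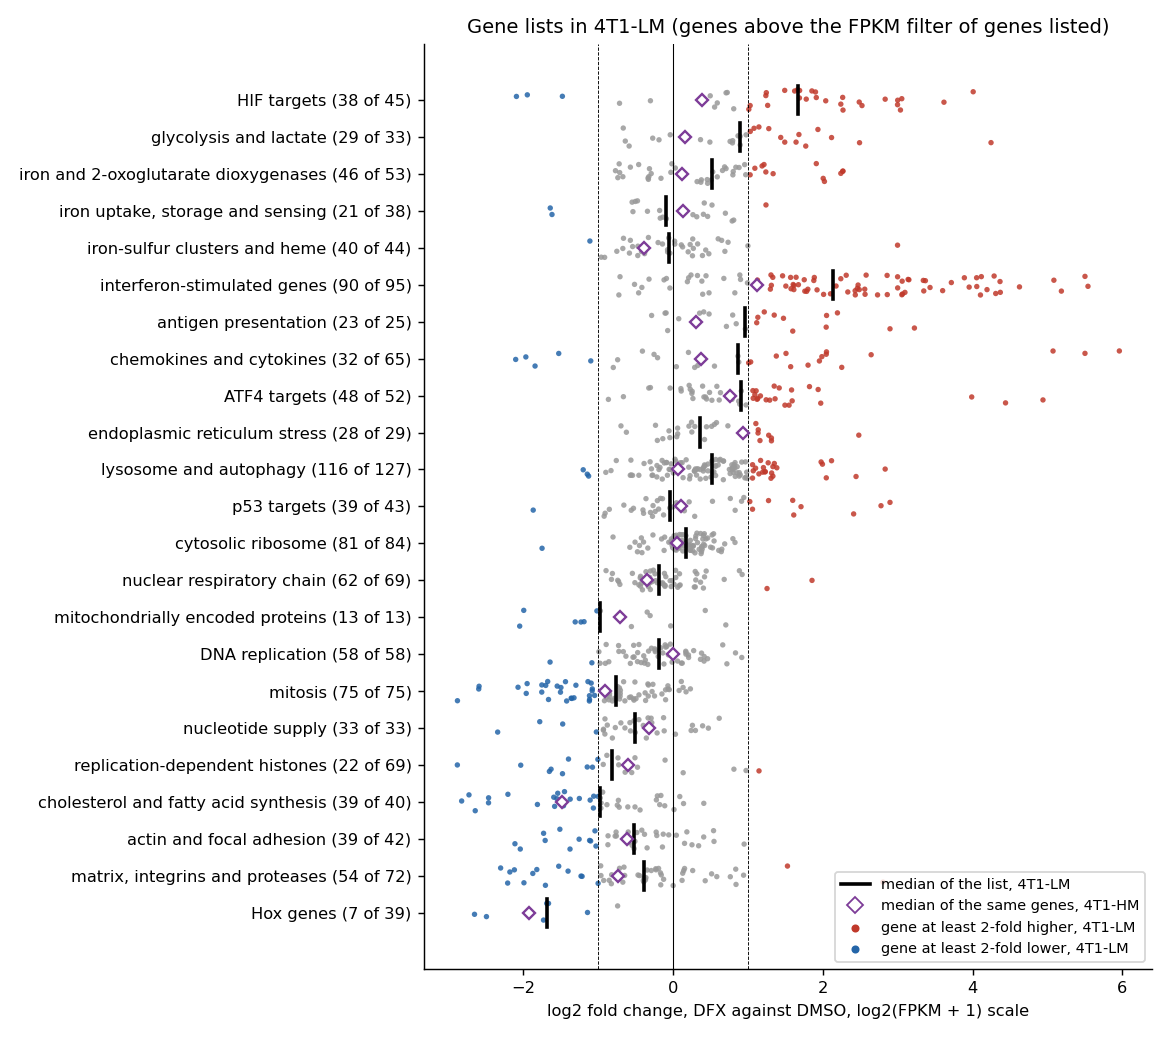
Log2 fold changes of LM_DFX over LM_Ctrl (horizontal axis) for the members of each gene list that passed the filter, 1 point per gene, with the list's median as a bar, the median of the same genes in 4T1-HM as a diamond and the 2-fold limits as broken lines. Interferon-stimulated genes and HIF targets have medians of 2.14 and 1.67, and sterol synthesis, mitochondrially encoded proteins and Hox genes have medians of -0.97, -0.97 and -1.69.

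Iron handling genes moved far less at the RNA level than the HIF targets. Of 38 listed genes of iron uptake, storage and sensing, 37 were found in the table and 21 passed, with a median of -0.09. Of the 21, 1 was higher (4.76%) and 2 lower (9.52%), beside 7.51% and 9.24% of all genes. Tfrc, the transferrin receptor, stood at 107 FPKM in LM_Ctrl and 188 in LM_DFX, a ratio of 1.76 (1.72 to 1.80) and a log2 fold change of 0.81. Slc11a2, the divalent metal transporter DMT1, stood at 7.52 and 12.8 (0.70). Neither reached 2-fold, although the counting interval of Tfrc lies above 1.

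Ferritin, the iron store, had among the most abundant transcripts in both libraries. Fth1 stood at 2204 FPKM in LM_Ctrl and 1552 in LM_DFX (-0.51), and Ftl1 at 1610 and 1463 (-0.14), with 64.2% of the words of Ftl1 shared with other genes. The hairpins shown for them act on translation, which these libraries do not measure. Ferroportin (Slc40a1) was under the filter, at 0.212 and 0.0812. Steap3, the endosomal reductase that prepares transferrin iron for export from the endosome, was the gene that was higher, at 6.46 and 16.6 (1.24). Its relative Steap2, at 19.1 and 5.55 (-1.62), and the ferroxidase Cp, at 17.4 and 4.89 (-1.64), were lower.

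Genes of iron-sulfur clusters and heme were nearly all within 2-fold, whereas part of the iron and 2-oxoglutarate dioxygenases were higher. Of 44 listed genes of iron-sulfur clusters and heme, 40 passed, with a median of -0.05. Hmox1 was higher (2.5%) and Nfs1, the cysteine desulfurase that starts cluster assembly, was lower (2.5%, at -1.11). Among all genes 7.51% were higher and 9.24% lower. Of 53 iron and 2-oxoglutarate dioxygenases, 46 passed, and 12 were higher (26.1%) and none lower (median 0.52). Beyond the prolyl hydroxylases given above, these were the histone demethylases Kdm3a (2.26), Kdm4b (2.02), Kdm6b (2.00), Kdm7a (1.21) and Jmjd1c (1.19), with Jmjd6 (1.91), Ogfod2 (1.09) and the RNA demethylase Alkbh5 (1.34). Over the 42 members that reached FPKM of 1 in both libraries, 11 were higher.

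Interferon-stimulated genes formed the largest group that was higher. Of 95 listed, 90 passed, and 68 were higher and none lower, with a median of 2.14. Of these, 19 reached FPKM of 1 only in LM_DFX and so had to differ, and over the 71 that reached it in both libraries 49 were higher (median 1.78). Among the antiviral effectors 60 of 67 were higher (median 2.47). Among the 23 genes of sensing and signalling 8 were higher (median 0.44).

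The effectors act on viral RNA, viral translation and viral entry, and on ubiquitin-like tagging. Ifit3, which binds foreign RNA with other IFIT proteins, stood at 0.474 FPKM in LM_Ctrl and 67.6 in LM_DFX (5.54), and Ifit1 at 2.30 and 80.4 (4.63). Isg15, the ubiquitin-like tag, stood at 16.1 and 284 (4.05), a ratio of 17.6 (15.2 to 20.4), and Usp18, which removes it, at 0.159 and 41.2 (5.18). Mx2 (4.37), Ifi44 (4.19), Oasl1 (4.37) and Rsad2 (4.29) were of the same order. The GTPases Igtp (3.89), Irgm2 (3.06) and Irgm1 (2.47), usually assigned to interferon gamma, were higher as well. Ifit3 and Ifit3b, which share 61.8% and 55.3% of their words, cannot be told apart with confidence.

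Some of the factors that carry the interferon signal were higher and others lay within 2-fold. Stat2 stood at 4.45 and 47.4 FPKM (3.15) and Irf9 at 2.56 and 24.8 (2.86), which are parts of the complex that binds the response element shown for Ifit3 and Cxcl10. Irf7, which extends interferon production, stood at 1.06 and 39.8 (4.31), and Irf1 at 21.2 and 54.1 (1.31). Ifnb1, interferon beta, stood at 0.0848 and 3.66, from 1 and 60 fragments, a ratio of 43.1 (7.45 to 1732). The RNA sensors Ifih1 (2.58), Ddx58 (2.86) and Tlr3 (1.64) were higher, whereas the kinase Jak2 (-0.72), the adaptors Mavs (-0.46) and Tmem173 (-0.42), the factor Irf3 (-0.71) and the receptor chain Ifnar1 (0.32) were within 2-fold.

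Antigen presentation and chemokine genes shared part of this pattern. Of 25 listed genes of antigen presentation, 23 passed, and 11 were higher and none lower (median 0.96), 3 of the 23 having passed only in LM_DFX. Cd274, the checkpoint ligand PD-L1, stood at 0.421 FPKM in LM_Ctrl and 12.3 in LM_DFX (3.22), and the peptide transporter Tap1 at 2.51 and 25.1 (2.90). B2m, the light chain of MHC class I, stood at 371 and 948 (1.35). The class I heavy chains H2-K1 (1.13) and H2-D1 (1.22) were higher too, but near-identical copies share reads with them. Psmb9, a subunit of the immunoproteasome, was at 1.12.

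Of 65 listed chemokines and cytokines, 32 passed, and 15 were higher and 5 lower, with a median of 0.87. Over the 26 that reached FPKM of 1 in both libraries, 11 were higher and 5 lower (median 0.44). Beside Ccl4, Ccl5 and Cxcl10, the neutrophil chemokine Cxcl1 was higher (2.04), as were the growth factor of granulocytes and macrophages Csf2, at 1.033 and 11.7 FPKM (2.64), and Il15, which sustains natural killer cells, at 1.49 and 9.30 (2.05). In the other direction, the macrophage growth factor Csf1 stood at 58.1 and 12.8 (-2.10), the matrix cytokine Spp1 (osteopontin) at 863 and 220 (-1.97), and Tslp, Cxcl5 and Cx3cl1 at -1.84, -1.53 and -1.10. Of 33 listed NF-kappaB subunits and targets, 30 passed (median 0.15), and 7 were higher (23.3%) and 2 lower (6.67%), beside 7.51% and 9.24% of all genes. The subunits Rela (1.90) and Relb (1.51) and the inhibitor Nfkbia (1.41), itself a target, were among the 7.

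The promoter letters were counted per gene, over all genes with a RefSeq window. A gene was counted when any of its windows held the letters. Of the 11963 genes, 8315 (69.5%) had a window. GAAANNGAA, read on both strands, stood in 48.1% of the interferon-stimulated genes that were higher (25 of 52), in 7.3% of the genes kept and in 8.2% of all genes with a window. ACGTG, on both strands, stood in 71.4% of the HIF targets that were higher (15 of 21), against 25.9% and 18.5%. GCGTG, the other form of the HIF core, is more common. Either form stood in 100% of these HIF targets (21 of 21), against 64.1% and 41.5%. TTGCATCA stood in 26.3% of the ATF4 targets that were higher (5 of 19), against 0.6% and 0.9%. For mitosis genes that were lower, CCAAT, the box bound by NF-Y, stood in 83.3% (20 of 24), against 41.2% and 37.5%. TTTGAA, marked above in Cdc20, stood in 41.7% of them (10 of 24), against 12.3% and 18.3%. Over the whole lists, called or not, GAAANNGAA stood in 40.85%, ACGTG in 64.3% and TTGCATCA in 20.5%. CCAAT stood in 69.5% and TTTGAA in 35.6% of the whole mitosis list. Among all genes that were higher, GAAANNGAA stood in 14.2%, ACGTG in 27.7%, either HIF form in 61.2% and TTGCATCA in 2.1%. Among all genes that were lower, CCAAT stood in 44.7% and TTTGAA in 16.1%. Part of these lists was built from genes known to carry the sites, and a match is a description of the window, not evidence of binding.

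**Figure D4:**
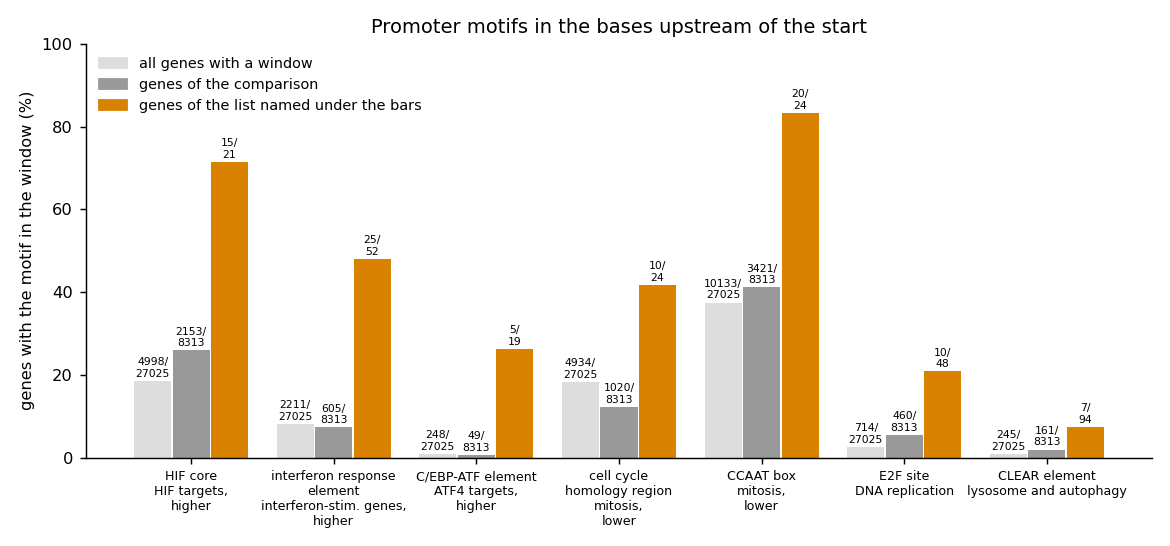
Share of genes with each motif in a promoter window (vertical axis, percent), with bars for all genes with a window (light grey), for the genes kept (dark grey) and for the gene set named under each motif (orange). Above each bar is the number of genes with the motif of those with a window. The shares in the named sets are 71.4% for the HIF core in its ACGTG form, 48.1% for the interferon element and 83.3% for CCAAT.

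Stress genes of the ATF4 path were higher in large part. Of 52 listed ATF4 targets, 48 passed, and 22 were higher and none lower, with a median of 0.90, and 20 of the 46 that reached FPKM of 1 in both libraries were higher. Ddit3 (CHOP), a factor of stress-induced cell death, stood at 6.05 FPKM in LM_Ctrl and 111 in LM_DFX (3.99). Ppp1r15a, which restarts translation, stood at 3.85 and 104 (4.44), and Atf3 at 5.05 and 184 (4.94). Atf4 itself stood at 263 and 495 (0.91), under 2-fold.

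The metabolic arm of ATF4 was represented by transport and tRNA charging. Asns, asparagine synthetase, stood at 57.5 and 127 FPKM (1.13), and Aars, whose promoter is shown above, at 49.7 and 151 (1.59). The tRNA synthetase genes Sars (1.36), Cars (1.17), Eprs (1.11), Yars (1.07) and Wars (1.06) were higher too. The transporters Slc3a2 and Slc7a11, which together import cystine, were at 1.55 and 1.42. Trib3, a pseudokinase that holds back ATF4 and AKT, stood at 36.1 and 141 (1.94). Chac1, which degrades glutathione, stood at 35.3 and 42.1 (0.25).

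The unfolded protein response was less uniform. Of 29 listed endoplasmic reticulum stress genes, 28 passed (median 0.35), and 8 were higher (28.6%) and none lower, beside 7.51% and 9.24% of all genes. Hspa5, the main chaperone of this compartment, stood at 470 and 1051 FPKM (1.16), and its cofactor Dnajb9 at 4.91 and 31.95 (2.48). The lectin chaperone Calr was at -0.62. Among 24 heat shock genes that passed of 27, the mitochondrial protease Lonp1 (2.12) and the mitochondrial chaperone Hspa9, at 196 and 453 FPKM, were higher, whereas Hspa8, with 44.8% of its words shared, was lower (-1.58). For the list as a whole, 4 were higher (16.7%) and 1 lower (4.17%).

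Part of the mitosis genes were lower, and nearly all DNA replication genes lay within 2-fold. All 75 listed mitosis genes passed, and 28 were lower and none higher, with a median of -0.77. The mitotic kinase Plk1 stood at 78.1 FPKM in LM_Ctrl and 9.75 in LM_DFX (-2.88), and Cdc20, the activator of the anaphase complex, at 123 and 19.5 (-2.60). The mitotic cyclin Ccnb2 stood at 102 and 16.1 (-2.59), a ratio of 0.158 (0.143 to 0.173). All 58 listed DNA replication genes passed as well, and 2 were lower, Dna2 (-1.64) and Chtf18 (-1.09), and none higher, with a median of -0.18. Mki67, a general marker of cycling cells, stood at 46.4 and 41.7 (-0.15). Cdc20 shares 26.7% of its words with another gene.

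Genes of nucleotide supply were mostly within 2-fold, and 12.1% were lower beside 9.24% of all genes. Rrm2, the iron-holding subunit of ribonucleotide reductase in cycling cells, stood at 119 and 22.6 FPKM (-2.34). Its partner Rrm1, which holds no iron, was at -0.36, and the alternative iron subunit Rrm2b stood at 5.82 and 5.24 (-0.13). Thymidine kinase Tk1 (-1.78), Cad, which starts pyrimidine synthesis (-1.48), and Ctps2 (-1.03) completed the 4 of 33 genes that were lower, and none was higher (median -0.51). Among 32 genes of G1 control that passed of 35, Ccnd1 (cyclin D1), at 326 and 78.3 (-2.04), Cdkn2c (-2.46), Cdkn3 (-1.78), Ccne1 (-1.44) and E2f8 (-1.33) were lower, and the CDK inhibitor Cdkn1a (p21) was higher, at 8.09 and 61.3 (2.78). Of the 32, 15.6% were thus lower and 3.13% higher, beside 9.24% and 7.51% of all genes.

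Cdkn1a is also a p53 target. Of 43 listed p53 genes, 39 passed, and 9 were higher (23.1%) and 1 lower (2.56%), beside 7.51% and 9.24% of all genes. Mdm2 (1.60), Gadd45a (2.41), Bbc3 (1.27), Trp53inp1 (1.71) and Ddb2 (1.06) were higher, as was Trp53 itself, at 14.7 and 30.9 FPKM (1.02). Most other members were within 2-fold, with a median of -0.04. Of the 69 listed histone genes of S phase, 22 passed, 11 of them only in LM_Ctrl, and 9 were lower and 1 higher. Most of these mRNAs lack a poly(A) tail, and the protocol names both poly(A) selection and depletion of ribosomal RNA, so how far the libraries hold them is uncertain. The linker histone H1f0, which is polyadenylated, stood at 450 and 60.1 (-2.88).

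Many genes of sterol and fatty acid synthesis were lower. Of 40 listed genes, 39 passed, and 19 were lower and none higher, with a median of -0.97. Hmgcs1, which makes the precursor of mevalonate, stood at 163 FPKM in LM_Ctrl and 28.8 in LM_DFX (-2.47). Fasn, fatty acid synthase, stood at 100 and 17.4 (-2.46), and Elovl6, which lengthens its product, at 28.9 and 3.79 (-2.64). The regulator Srebf2, at 73.6 and 62.9 (-0.22), and its target Sqle (-0.21) did not reach 2-fold.

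Genes of the lysosome and autophagy were higher in part. Of 127 listed, 116 passed, with a median of 0.52, and 23 were higher (19.8%) and 3 lower (2.59%), beside 7.51% and 9.24% of all genes. Among 18 subunits of the proton pump 6 were higher (median 0.85), led by Atp6v0b, at 27.2 and 116 FPKM (2.05), and Atp6v0d1 (1.99). Among 46 autophagy genes 8 were higher, and Sqstm1 (p62), the cargo receptor, stood at 136 and 744 (2.44), a ratio of 5.47 (5.34 to 5.61). Among 52 hydrolases and their partners 9 were higher and 3 lower (median 0.43). These included the sialidase Neu1 (1.98), the cathepsins Ctsd (1.23) and Ctsb (1.07), and the cholesterol exporters Npc1 (2.12) and Npc2 (1.17), whereas Dnase2a (-1.20), Gm2a (-1.15) and Gusb (-1.13) were lower. TCACGTGA, the site of the lysosomal regulator TFEB read on both strands, stood in 7.4% of the list's genes with a promoter window (7 of 94), against 1.9% of the genes kept.

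Transcripts of the PI3K, AKT and mTOR path were mixed. The study named the PI3K and AKT path from enrichment among genes higher in untreated 4T1-HM and lower there with DFX. It then tested protein phosphorylation. Of 50 listed, 44 passed, and 6 were higher (13.6%) and 3 lower (6.82%), beside 7.51% and 9.24% of all genes. The median was 0.01. Flcn (1.85), Fnip1 (1.78), Fnip2 (1.53) and Rragc (1.24), which bring mTOR to the lysosome, were higher, as were the translation inhibitor Eif4ebp1, at 65.4 and 187.5 FPKM, and the adaptor Gab2 (1.55). Akt1 stood at 189 FPKM in LM_Ctrl and 65.6 in LM_DFX (-1.51), a ratio of 0.347 (0.336 to 0.358), and Irs2 and the mTOR inhibitor Deptor were lower as well (-1.40 and -1.54). Of 2 factors tied to stem cell properties, Myc stood at 103 and 196 (0.93) and Klf4 at 6.36 and 42.9 (2.58).

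Growth factor feedback and early response genes did not move one way. Among 29 genes of the EGF receptor and MAPK list that passed of 35, 9 were higher and 4 lower. The phosphatases Dusp1 (2.56), Dusp8 (2.27), Dusp4 (2.20), Dusp10 (1.57) and Dusp16 (1.48) were higher, whereas Dusp6, which acts on ERK, was lower (-1.30). Of 30 early response and AP-1 genes that passed of 32, 8 were higher (26.7%), among them Klf11 (2.29), Maff (2.23) and Jun (1.01). Ier2 (-2.40), Egr1 (-1.58), Junb (-1.57) and Egr3 (-1.54) were lower (13.3%). All of these are short-lived mRNAs, measured here at a single time.

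A minority of the genes of adhesion, matrix and the cytoskeleton was lower, and few were higher. Of 72 listed matrix, integrin and protease genes, 54 passed, with a median of -0.39. Of the 54, 13 were lower (24.1%) and 2 higher (3.70%), beside 9.24% and 7.51% of all genes. Itga3, an integrin chain that binds laminin, stood at 335 FPKM in LM_Ctrl and 83.4 in LM_DFX (-1.99), and Thbs1, thrombospondin, at 241 and 48.0 (-2.30). Mmp9, a gelatinase, stood at 108 and 24.02 (-2.12), Mmp14 at 67.1 and 13.7 (-2.21), and Mmp3 was at -2.18. The plasminogen activator Plat (2.80) and the fibronectin receptor chain Itga5 (1.53) were higher, and fibronectin itself, Fn1, was at 0.40.

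Of 42 listed actin and focal adhesion genes, 39 passed, with a median of -0.52, and 11 were lower (28.2%) and none higher, beside 9.24% and 7.51% of all genes. Actb, beta-actin, stood at 1759 and 427 FPKM (-2.04), although it shares 23.6% of its words, and Tpm1, a tropomyosin, at 160 and 48.2 (-1.71). Of 41 listed TGF-beta genes, 35 passed, and 9 were lower (25.7%) and none higher (median -0.38). Beside Ctgf, these were Cyr61, at 254.9 and 57.8 (-2.12), the inhibitors of differentiation Id1 (-2.43) and Id3 (-2.56), the latent TGF-beta binding protein Ltbp2 (-2.56), Tgfb3, Bmp1, Smad6 and Pmepa1. Since Actb and Hspa8 are often used to scale other genes, their ratios of 0.242 and 0.332 are given for that reason.

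Markers of the epithelial and mesenchymal state did not separate. Of 43 epithelial markers, 34 passed, and 5 were higher (14.7%) and 6 lower (17.6%). Of 25 mesenchymal markers 12 passed, and 1 was higher (8.33%) and 3 lower (25%). Among all genes 7.51% were higher and 9.24% lower. Among keratins, Krt16, known from stressed epithelium, stood at 1.42 and 95.4 FPKM (5.31) and Krt19 was at 1.14, whereas Krt7, at 175 and 36.6 (-2.23), Krt8, at 963 and 339, and Krt14 (-2.27) were lower. S100a4 (-2.09) and Sparc (-1.62), both tied to invasive behaviour, and Foxc2 (-1.12) were lower. Krt8, Krt14 and Krt16 share 28.2% to 51.9% of their words with other genes.

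Genes of mitochondrial proteins differed by genome. Of the 13 proteins encoded in mitochondrial DNA, 6 were lower and none higher, with a median of -0.97, and their summed level was 12326 FPKM in LM_Ctrl and 7981 in LM_DFX. The complex I subunit mt-Nd1 stood at 2599 and 1107 (-1.23), and cytochrome b, mt-Cytb, at 2484 and 1226 (-1.02). The other RNAs of this genome did not all move the same way. Of the 2 mitochondrial ribosomal RNA genes kept, 1 was higher and none lower (median 1.26). Of the 8 mitochondrial tRNA genes kept, 6 were lower and none higher (median -1.38). The protocol names both poly(A) selection and depletion of ribosomal RNA, and their part in these levels was not tested. Of 62 nuclear genes of the respiratory chain that passed of 69, 2 were higher and none lower (median -0.19). The mitochondrial ribosome (77 of 78 passed) had 1 higher and 1 lower, and the cytosolic ribosome (81 of 84 passed) had only Rpl30 lower (-1.75), with a median of 0.17. In the TCA cycle, Idh1, the cytosolic form that makes NADPH, stood at 63.1 and 14.8 (-2.02), and the rest of the 28 genes were within 2-fold apart from Got1 (1.31) and Pcx (1.08).

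Genes of defence against metals and oxidants and of DNA repair were mostly within 2-fold. Of metal genes 9.09% were higher and 4.55% lower, and of NRF2 and ferroptosis genes 11.9% each. Of DNA repair genes 1.79% were higher and 7.14% lower, and of the Bcl2 family 18.75% each, beside 7.51% and 9.24% of all genes. Mt1, a metallothionein that binds zinc and copper, stood at 37.9 and 128 FPKM (1.73), and Mt2 was at 1.23, the only 2 higher among 22 metal genes that passed of 27, with the zinc importer Slc39a10 lower (-1.28). Of 50 NRF2 and ferroptosis genes, 42 passed, and 5 were higher and 5 lower. Hmox1, Sqstm1, Gch1 (2.17), Slc7a11 and Sat1 (1.297) were higher, whereas the classic NRF2 targets Aldh3a1 (-1.84), Gstm1 (-1.26) and Nqo1, at 9.95 and 4.47, were lower. Of 56 DNA repair genes that passed of 57, H2afx, Fanca (-1.47), Ung (-1.31) and Xrcc3 (-1.08) were lower, and Ddb2 was higher. In the Bcl2 family, 16 of 22 genes passed, with Bnip3, Bnip3l (1.49) and Bbc3 higher and Bok (-1.55), Bcl2 (-1.09) and Bmf (-1.01) lower.

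The same ratio in 4T1-HM shares no library with the one above, and the values of both clones were set side by side over the 11963 genes. In 4T1-HM, 743 of them were higher (6.21%) and 1465 lower (12.2%). Of the 898 genes higher in 4T1-LM, 438 were higher in 4T1-HM as well, which is 48.8% of the LM and 59.0% of the HM genes, and 14 were lower. Of the 1105 genes lower in 4T1-LM, 674 were lower in 4T1-HM, 61.0% of the LM and 46.0% of the HM genes, and 7 were higher. With 1 library in each condition, no difference between the clones was tested.

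HIF targets were the list, of 41, in which the clones' medians lay farthest apart. In 4T1-HM, 9 of the same 38 were higher and 3 lower, with a median of 0.38 beside 1.67 in 4T1-LM. The levels without DFX differed as well, and 33 of the 38 were lower in LM_Ctrl than in HM_Ctrl, by a median of -0.63 on the log2 scale. With DFX 8 were lower, and the median was 0.38. Of all 11963 genes, 5924 stood below HM_Ctrl in LM_Ctrl (median 0.003), and 5116 stood below HM_DFX in LM_DFX (median 0.08). Ndrg1 is an example among the HIF targets, at 49.1 and 613 FPKM in 4T1-LM and 177 and 577 in 4T1-HM. Bnip3, at 27.98 and 205 beside 85.3 and 171, and Slc2a1, at 40.3 and 231 beside 107 and 207, had the same form. In these 3 genes the levels of the clones were closer under DFX than under DMSO.

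In glycolysis, 22 of 29 genes were lower in LM_Ctrl than in HM_Ctrl (median -0.36), and 1 of 29 was lower in LM_DFX than in HM_DFX (median 0.35). The order of the clones was thus reversed under DFX, with a median gap of similar size. Interferon-stimulated genes began level between the clones, with a median of 0.03 under DMSO and 43 of 90 lower in LM_Ctrl. Under DFX the median was 0.95, and 1 of 90 was lower in LM_DFX than in HM_DFX. Of the 90, 19 were kept only because LM_DFX reached FPKM of 1, and HM levels played no part in the filter. The comparison under DFX is therefore tilted toward LM_DFX. In 4T1-HM, 49 of the 90 were higher and 4 lower (median 1.12). Endoplasmic reticulum stress genes lay the other way, and 27 of 28 were lower in LM_DFX than in HM_DFX, with a median of -0.78. Hspa5 stood at 470 and 1051 FPKM in 4T1-LM and at 472 and 2052.5 in 4T1-HM. Mitosis, with medians of -0.77 and -0.91, was close. ATF4 targets, with 0.90 and 0.76, were close as a whole but not in each role. Their regulators had medians of 1.11 and 0.36, with 13 of 16 larger in 4T1-LM. Amino acid genes had 0.62 and 0.58 (10 of 20 larger), and tRNA synthetases 0.97 and 0.99 (2 of 12 larger).

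**Figure D5:**
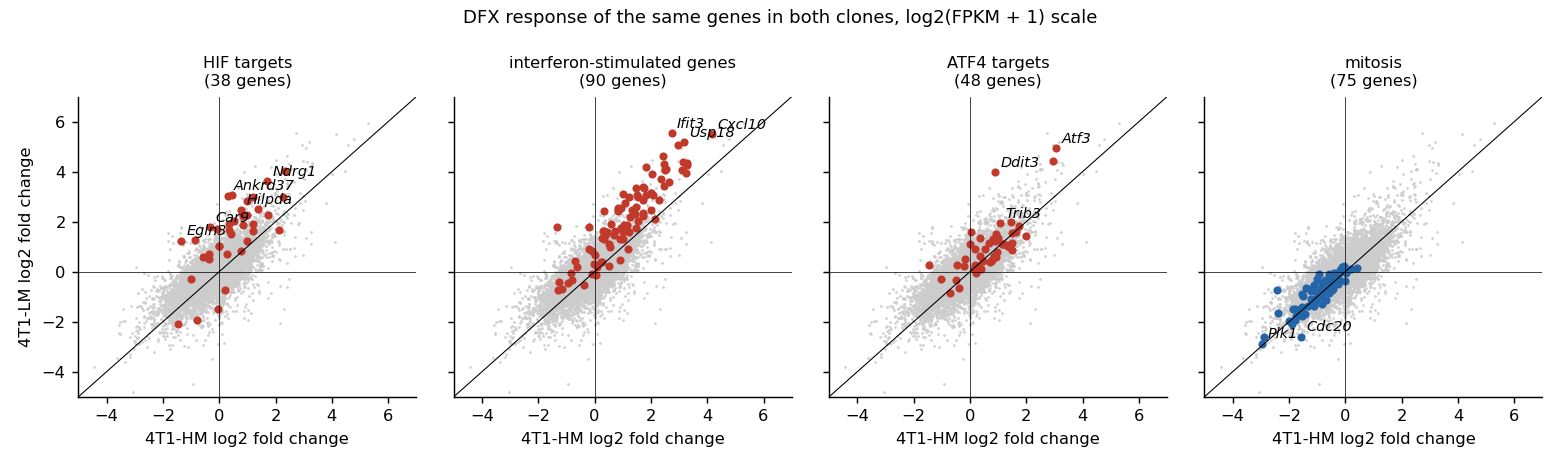
Log2 fold change of DFX over DMSO in 4T1-HM (horizontal axis) against that in 4T1-LM (vertical axis), 1 grey point per gene of the 11963 and 1 panel per list, with the 38 HIF targets, 90 interferon-stimulated genes, 48 ATF4 targets and 75 mitosis genes coloured and the diagonal drawn. HIF targets lie mostly above the diagonal, with medians of 1.67 in 4T1-LM and 0.38 in 4T1-HM, and mitosis genes lie along it, at -0.77 and -0.91.

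Single genes with the widest gaps between the clones were named by the size of the gap, so the gap itself is a description. Ddit3 stood at 6.05 and 111 FPKM in 4T1-LM and 79.8 and 148 in 4T1-HM, a gap of 3.11 on the log2 scale. Eno2 (gap 2.97), Ifit3 (2.81), Ankrd37 (2.73), the actin bundler Espn (2.66) and Angptl6 (2.45) followed this pattern of a larger gain in 4T1-LM. The synaptic gene Nptx1 (gap 3.13) was at 0.17 in 4T1-LM and -2.96 in 4T1-HM, and xanthine dehydrogenase, Xdh, had a gap of 2.63 with 0.91 in 4T1-LM. In the other direction, Irs2, an adaptor of the insulin receptor, was at -1.40 in 4T1-LM and 0.91 in 4T1-HM (gap -2.31). Csf1 (gap -1.77), Junb (-2.16), Egr1 (-1.81), Ucn2 (-2.07) and Wisp1 (-2.04) lay the same way. Sumo2, Sfn, Krt14 and Rpl30, with gaps of -2.72, -2.19, -2.01 and -1.95, share over 20% of their words with other genes and are uncertain.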

How the data were processed

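RNA of 4 cultures, 1 per group, was measured by bulk RNA-seq: LM_Ctrl, LM_DFX, HM_Ctrl and HM_DFX. Samples were grouped by their titles and treatment labels. The protocol names a poly(A) selection kit and also depletion of ribosomal RNA, and which of them set the content of the libraries is uncertain. Directional libraries were read as 150-bp pairs. Per the submitters' processing notes, the authors used FastQC, Trimmomatic, HISAT2 and featureCounts on mm10, whose versions and strand setting are not given in the sources used here. The deposited values are FPKM, gene-level fragments scaled by the authors to gene length and total fragments. FPKM does not correct for a few genes taking a larger share of a library, and it carries no replicate error.

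Genes with FPKM of 1 or more in LM_DFX or LM_Ctrl were kept, and log2((LM_DFX + 1)/(LM_Ctrl + 1)) was computed, which understates the change of low genes. Calls are at least 2-fold, with no test and no p-value, because each condition holds 1 library. The authors' edgeR comparison was not repeated for the same reason.

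Whole fragments were recovered from FPKM with GENCODE M21 gene lengths, to a tolerance of 0.02 fragments, for 11930 of the 11963 genes (99.7%), and served for depth and for 95% Clopper-Pearson intervals on the share of a gene's fragments in LM_DFX. Intervals, and the floor of 3 fragments used against a library at 0, cover counting error only.

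The 41 gene lists and the genes kept were chosen with earlier results of these data known, and 1900 of their entries matched a symbol in the table and 8 did not. Named genes were the 15 protein-coding genes with the largest change in each direction at FPKM of 10 or more in either library, up to 5 higher and 5 lower per list by size, a list of fixed genes, and the 10 widest gaps in each direction between the clones. Some genes that this rule names are not reported here. Other genes named beside a list's count were named after their values were seen. Genes with over 20% of their 31-base words in another gene are given as uncertain. Promoter motifs were searched on both strands of RefSeq windows (GRCm38.p6). Python 3.11.15, numpy 2.4.6, pandas 2.3.3, scipy 1.17.1 and matplotlib 3.10.9 were used, and the steps were tested on simulated data. Other pseudocounts, filters, scalings, thresholds and gene classes were tried.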

Additional observations from a re-analysis of the deposited data

Results flagged for a closer look

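Among the named genes that were at least 2-fold higher with DFX in one clone and at least 2-fold lower in the other, there were 3, and none of these differences was tested, since each group is 1 library. Slfn2, of the Schlafen family of interferon-responsive genes, stood at 2.33 FPKM in LM_Ctrl and 10.5 in LM_DFX, and at 8.83 in HM_Ctrl and 2.89 in HM_DFX, a difference between the clones' log2 fold changes of 3.12. Egln3, the prolyl hydroxylase, stood at 29.8 and 71.7 in 4T1-LM and at 85.9 and 32.8 in 4T1-HM, a difference of 2.60. Gapdh stood at 7.06 and 16.8 in 4T1-LM and at 22.9 and 10.7 in 4T1-HM, a difference of 2.18, with 28.1% of its 31-base words shared with other genes. Its values are uncertain, and in LM_Ctrl it lay far below the median of 65.1 FPKM of the listed glycolytic enzymes. In each of these 3 genes LM_Ctrl was below HM_Ctrl and LM_DFX above HM_DFX.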

How the results depend on the processing

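No list median past 2-fold changed sign under the alternatives tried. Single genes were followed only for 412 named ones, with a pseudocount of 0.1 and under the scalings, and none past 2-fold changed sign. That outcome was fixed in advance, since a pseudocount cannot change a sign and the scalings shifted values too little to reverse such a change. The counts of 898 genes higher and 1105 lower moved by more than 1.5 times in these cases: 1813 lower on the TPM scale (1327 higher), where 13879 genes passed the filter, 2036 higher and 2498 lower at 1.5-fold, and 180 higher and 134 lower at 4-fold, which also turned the share of higher genes among those called from 44.8% to 57.3%. With a pseudocount of 0.1 the counts were 1218 and 1632, at FPKM of 5 or more 718 and 769, under median-ratio scaling 981 and 1004, and under 75th-percentile scaling 963 and 1028. With the near bound of the counting interval past 2-fold they were 833 and 1010, and for protein-coding genes 757 and 809. Over the same 11963 genes, the median-ratio, 75th-percentile and TPM scalings shifted the median log2 fold change by 0.05, 0.04 and -0.02, and over the genes that passed on the TPM scale it was -0.09. Of 412 named values, 166 moved by 0.1 or more with a pseudocount of 0.1 and 135 on the TPM scale, and none under the other 2 scalings, where 3 near 0 crossed it, as did 1 on the TPM scale. Of 82 list counts, 13 moved by more than 1.5 times with that pseudocount and 12 on the TPM scale. The 41 list medians moved by less than 0.1 under the median-ratio and 75th-percentile scalings. Medians near 0 crossed it for a few lists: those of the Bcl2 family, p53 targets and the EGF receptor and MAPK list were 0.15, 0.18 and 0.27 at FPKM of 5 or more.

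The alternatives of FPKM of 1 or more in both libraries (700 higher, 806 lower) and of lists without genes of shared sequence were chosen after seeing the data. In the second, 11 of 82 list counts and 8 of 41 list medians moved, and 2 medians near 0 changed sign, those of the EGF receptor and MAPK list and of heat shock proteins. No paired analysis was possible because each group holds 1 library and the labels carry no replicate numbers, and for the same reason no library could be left out. Depth limits genes under about 10 fragments, such as Ifnb1 and Adm in LM_Ctrl.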

Other observations

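Genes not described above included further groups. Of 39 listed Hox genes, 7 passed the filter, and 6 were lower, with a median of -1.69 (-1.93 in 4T1-HM). Hoxa5, a regulator of axial pattern that is also studied in mammary epithelium, stood at 60.1 FPKM in LM_Ctrl and 9.86 in LM_DFX (log2 fold change -2.49), and Hoxa6 was at -2.65. In the Myc network, the antagonists Mxd1, at 0.890 and 11.9 (2.77), and Mxi1 (1.69) were higher.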
